A study of Sus scrofa domesticus with 6 samples.

Results

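A set of 9 genes of the cartilage matrix and of chondrocytes, the cells that make it, was followed in the growing condyle of the lower jaw. They were taken by name from the deposited table, which holds 25322 gene rows, and each of the 9 names had 1 row. The genes are ACAN, HAPLN1, MATN1, MATN3, MATN4, COMP, CHADL, LECT1 (chondromodulin, also called CNMD) and C2orf82 (also called SNORC).

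Aggrecan, the product of ACAN, is a very large proteoglycan whose chondroitin sulfate chains hold water and give cartilage its stiffness. Its end domain binds hyaluronan, and link protein, the product of HAPLN1, locks that contact in place. Matrilins and COMP are multi-subunit adaptor proteins that connect collagen fibrils with one another and with proteoglycans. CHADL is a small leucine-rich repeat protein of the cartilage matrix, SNORC is a chondroitin sulfate proteoglycan of the chondrocyte membrane, and chondromodulin is a membrane-anchored protein whose released part inhibits vessel growth. In the condyle, cartilage formed before birth is invaded by vessels and replaced by bone.

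The samples were mandibular condyles of miniature pig embryos aged 45 or 85 days, with 3 RNA sequencing libraries per age. At both ages the labels give the tissue as cartilage, the cells as chondrocytes with osteocytes, and the treatment as the osteogenesis of cartilage. No genotype or agent sets the ages apart, and ground tissue pieces were used, so each library is a mixture of the cells in the dissected piece. The labels do not say that each library comes from its own animal, so p-values measure only the spread between these libraries. Total counts ran from 12546729 to 16559616 per library. Levels are given as CPM, a gene's count relative to the TMM-scaled size of its library, fold changes are day 85 over day 45, and a gene was called at an edgeR adjusted p under 0.05.

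The day 85 libraries differed from one another, and this touches every result on the 9 genes. Across genes, day 85 replicates 1 and 3 had a Spearman's rho of 0.981. Replicate 2 had a rho of 0.937 with replicate 1 and of 0.944 with replicate 3. COL2A1, which encodes the main collagen of cartilage and so checks the tissue label, stood at 4999, 4107 and 3733 CPM at day 45. At day 85 it stood at 28.8 CPM in replicate 1, 1074 CPM in replicate 2 and 50.6 CPM in replicate 3. The 12 genes of a skeletal muscle list summed to 42279 and 34949 CPM in day 85 replicates 1 and 3, to 2898 CPM in replicate 2, and to 4511 to 10098 CPM at day 45.

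The 9 genes together were a smaller part of the RNA in every day 85 library. Their summed share of the counts was 0.478%, 0.465% and 0.462% at day 45. It was 0.0357%, 0.144% and 0.118% in day 85 replicates 1, 2 and 3. The ages did not overlap, and the exact two-sided permutation p was 0.1, which is the smallest that 3 libraries against 3 can give. In bulk tissue, fewer chondrocytes and less of these RNAs per chondrocyte cannot be told apart. The sum was mostly ACAN, at 947 of 1539 CPM in day 85 replicate 2 and 990.1 of 1188 CPM in replicate 3. It therefore says little about the less abundant genes.

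In edgeR's fit over all genes, 2 of the 9 fell by day 85, HAPLN1 and CHADL. Of 15022 genes tested, 2.66% fell and 3.90% rose, or 437 higher and 598 lower genes rather than 586 and 400 when libraries were scaled by their totals alone. None of the 9 rose. At an unadjusted p under 0.05 edgeR had 6 of the 9 lower and 0 higher, against 4367 of the 15022 tested genes in either direction. For 7 of the 9, all 3 day 85 libraries lay under all 3 day 45 libraries, which held for 17.6% of tested genes. All 9 passed the filter on low counts. MATN1 and C2orf82 had at most 3 counts in 2 of the day 85 libraries and passed it through the others. The 9 genes had a median log2 fold change of -2.79, against 0.02 over all tested genes.

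**Figure D1:**
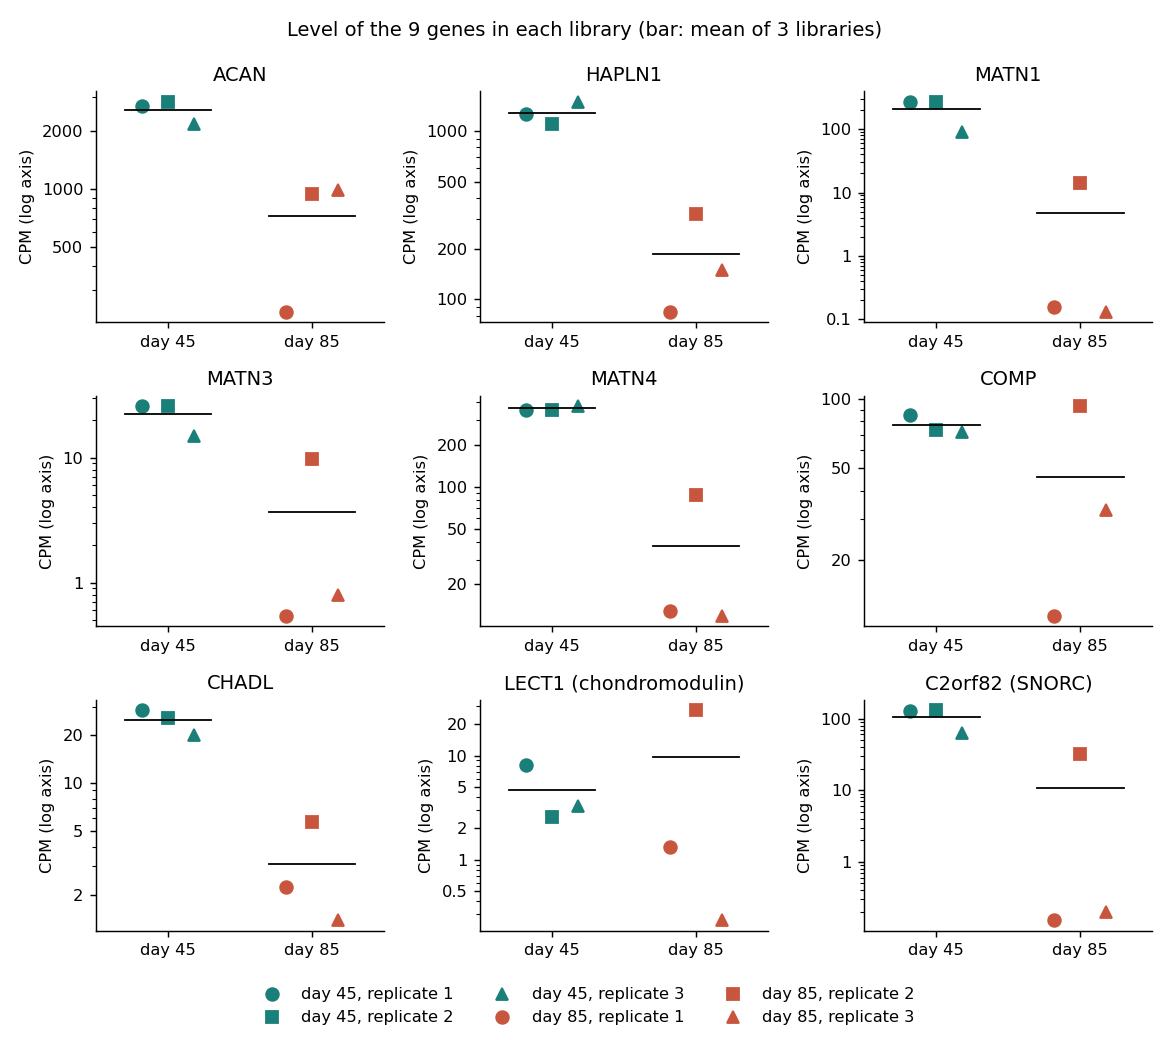
CPM of the 9 genes on log axes, with day 45 in green and day 85 in red, a marker shape for each replicate number, and a bar at the mean of 3 libraries. Day 85 replicate 2 (square) was the highest day 85 library for 8 of the 9 genes, and ACAN was the exception.

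ACAN and HAPLN1, the core of the aggregate, had the highest mean CPM of the 9 at both ages. Positions of all 9 genes are those that the authors' table lists, and the sources used here name no build for them. ACAN (ENSSSCG00000001832, chromosome 7, 59444453 to 59484493) had 2696, 2832 and 2167 CPM at day 45. At day 85 it had 233, 947 and 990.1 CPM in replicates 1, 2 and 3. Replicate 1 was therefore the low library for aggrecan, while replicates 2 and 3 nearly coincided. The ages did not overlap, yet ACAN did not pass (log2 fold change -1.83, SE 0.53, adjusted p = 0.0865).

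HAPLN1 (ENSSSCG00000014137, chromosome 2, 93942378 to 93981389) had 1254.5, 1097 and 1489 CPM at day 45. Its day 85 values were 84.6, 322 and 150.3 CPM. The highest day 85 library was thus far under the lowest day 45 library. HAPLN1 fell 6.90-fold (log2 fold change -2.79, SE 0.50, adjusted p = 0.0353). Per 100 FPKM of ACAN, where FPKM is the deposited level per gene length, link protein stood at 91.7, 76.4 and 135 FPKM at day 45 and at 71.7, 66.9 and 29.9 FPKM at day 85. This ratio did not overlap between ages either (exact two-sided permutation p = 0.1, and 0.2 after Benjamini-Hochberg adjustment over the 8 ratios to ACAN).

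Among the matrilins, MATN1 had the widest range between libraries, wider than that of any other of the 9 genes. MATN1 (ENSSSCG00000022554, chromosome 6, 81047913 to 81056211), which encodes cartilage matrix protein, had 269.8, 266 and 90.8 CPM at day 45. At day 85 it had 14.1 CPM in replicate 2, but only 2 counts each in replicates 1 and 3, or 0.155 and 0.132 CPM. The 95% Poisson intervals of these counts reach up to 0.558 and 0.476 CPM and cover counting error only. The pooled day 45 level was 1466 times that of day 85 replicates 1 and 3 pooled. Its 95% Poisson interval, 572 to 5380, leaves out the spread between libraries. Over all libraries MATN1 did not pass (log2 fold change -5.43, SE 1.60, adjusted p = 0.0924).

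MATN3 (ENSSSCG00000008603, chromosome 3, 126216875 to 126236879), a matrilin of growing cartilage, had 25.8, 25.7 and 15.0 CPM at day 45. It had 0.541, 9.67 and 0.791 CPM at day 85, where replicate 1 had 7 counts. Day 85 replicate 2 lay within a factor of 2.29 of the day 45 mean, whereas the other day 85 libraries were far lower. MATN3 did not pass (log2 fold change -2.58, SE 1.02, adjusted p = 0.161).

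MATN4 (ENSSSCG00000007391, chromosome 17, 53223744 to 53233619), a matrilin also made outside the skeleton, was the steadiest of the 9 at day 45, with 354, 355 and 377 CPM. At day 85 it had 12.8, 87.5 and 11.9 CPM. All 3 values were clearly under those at day 45, but the spread between them kept it from passing (log2 fold change -3.27, SE 0.85, adjusted p = 0.0720). The summed matrilin level was 381, 372 and 291 FPKM at day 45 and 7.51, 58.5 and 6.91 FPKM at day 85. MATN4 made up 48.6%, 49.0% and 73.7% of it at day 45 and 93.5%, 74.3% and 91.0% at day 85, while MATN1 made up 22.5% to 46.8% and then 1.27% to 15.2%. Neither share overlapped between ages, although the gap for MATN4 was narrow, from 73.7% to 74.3% (exact two-sided permutation p = 0.1 for each, the smallest possible).

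COMP (ENSSSCG00000013916, chromosome 2, 58815802 to 58823375) is a pentameric thrombospondin that is also abundant in tendon and ligament. It had 85.5, 73.1 and 72.0 CPM at day 45. The day 85 libraries had 11.4, 93.1 and 33.0 CPM. Day 85 replicate 2 was above every day 45 library and the other day 85 libraries were under all of them, so the ages overlapped. COMP did not pass (log2 fold change -0.74, SE 0.68, adjusted p = 0.503). Per 100 FPKM of ACAN it stood at 9.13, 7.43 and 9.57 FPKM at day 45 and 14.2, 28.3 and 9.61 FPKM at day 85. COMP was the only one of the 8 ratios to ACAN with all day 85 libraries above all day 45 libraries, by a margin that in replicate 3 was very small (exact two-sided permutation p = 0.1, adjusted 0.2).

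**Figure D2:**
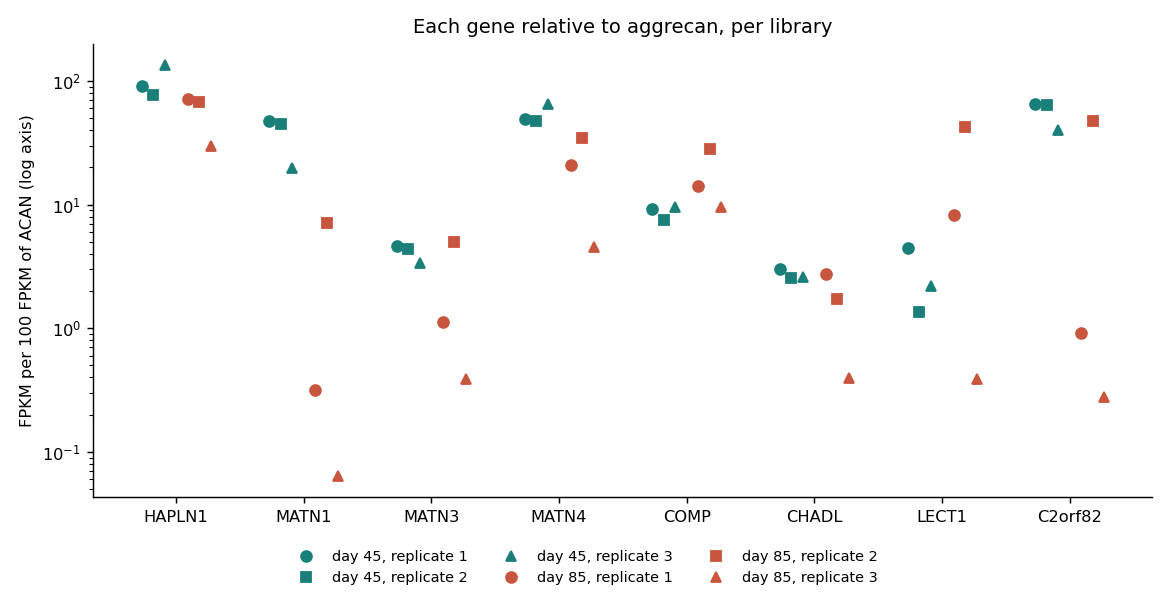
Deposited FPKM of each of the other 8 genes per 100 FPKM of ACAN in the same library, on a log axis, with day 45 in green and day 85 in red and a marker shape per replicate. MATN1 spans 19.9 to 47.5 at day 45 and 0.0633 to 7.08 at day 85, whereas COMP spans 7.43 to 9.57 and then 9.61 to 28.3.

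CHADL (ENSSSCG00000000067, chromosome 5, 4534000 to 4538720) had 28.6, 25.6 and 20.0 CPM at day 45. At day 85 the values were 2.24, 5.73 and 1.38 CPM, all under every day 45 library. It fell 7.88-fold (log2 fold change -2.98, SE 0.51, adjusted p = 0.0321). Relative to ACAN it did not separate the ages, with 3.00, 2.56 and 2.60 FPKM per 100 FPKM of ACAN at day 45 and 2.72, 1.71 and 0.395 at day 85 (exact two-sided permutation p = 0.3, adjusted 0.4).

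C2orf82 (ENSSSCG00000016294, chromosome 15, 147324526 to 147331222) had 126, 130.3 and 62.7 CPM at day 45. At day 85 it had 32.4 CPM in replicate 2 and 2 and 3 counts in replicates 1 and 3, or 0.155 and 0.198 CPM. The Poisson intervals of these low values reach 0.558 and 0.578 CPM. Day 45 exceeded day 85 replicates 1 and 3 pooled by a ratio of 597 (counting interval 255 to 1838). With replicate 2 included the gene did not pass (log2 fold change -3.28, SE 1.63, adjusted p = 0.240). Per 100 FPKM of ACAN, replicate 2 stood at 47.2 FPKM, inside the day 45 range of 39.9 to 64.7, and the other day 85 libraries at 0.917 and 0.276 FPKM.

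LECT1 (ENSSSCG00000009442, chromosome 11, 26648207 to 26665877) was the least abundant of the 9 in CPM at day 45, with 8.20, 2.60 and 3.27 CPM. At day 85 it had 1.31, 27.3 and 0.264 CPM. Replicate 2 was thus the highest of all 6 libraries for chondromodulin, and replicate 3, with 4 counts, the lowest. The fitted log2 fold change was 1.03 with an SE of 1.42 (adjusted p = 0.663), and it was -2.61 without day 85 replicate 2 (adjusted p = 0.0677). With all libraries it was -0.91 by limma-voom, so its direction differed with the library left out and with the method.

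The number of the 9 genes called depended on which day 85 libraries stood for the age. In day 85 replicates 1 and 3, all 9 genes lay under all 3 day 45 libraries, as did 27.9% of tested genes. Without day 85 replicate 2, edgeR called 7 of the 9 lower and 0 higher, against 10% (1528 of 15271) and 12.3% of all genes. MATN4 then had a log2 fold change of -4.87 (SE 0.15, adjusted p = 7.05e-05), MATN3 -5.02 (adjusted p = 0.00117), CHADL -3.78 (adjusted p = 0.00117) and HAPLN1 -3.45 (adjusted p = 0.00189). MATN1 and C2orf82 passed too (adjusted p = 0.00227 and 0.00127), with at most 3 counts in each remaining day 85 library. MATN3 had 7 and 12 counts in these libraries. MATN1, C2orf82 and MATN3 passed the filter on low counts only through day 45, where they are high, so their calls add no support. COMP also passed, at -1.78 (adjusted p = 0.0333). ACAN did not, at -2.07 (SE 0.60, adjusted p = 0.0571), nor did LECT1.

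Day 85 replicate 2 taken alone against the 3 day 45 libraries gave a narrower picture, with the lone library assumed to vary as the day 45 libraries do. This comparison and the one without replicate 2 share their day 45 libraries. Here 4 of the 9 were called lower, against 1.19% of all genes. These were MATN4 (log2 fold change -2.05), CHADL (-2.11), HAPLN1 (-1.99) and ACAN (-1.44, adjusted p = 0.0408). COMP and LECT1 had positive values of 0.28 and 2.53 and did not pass. HAPLN1 and CHADL were called in this comparison, with all libraries, and without replicate 2.

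**Figure D3:**
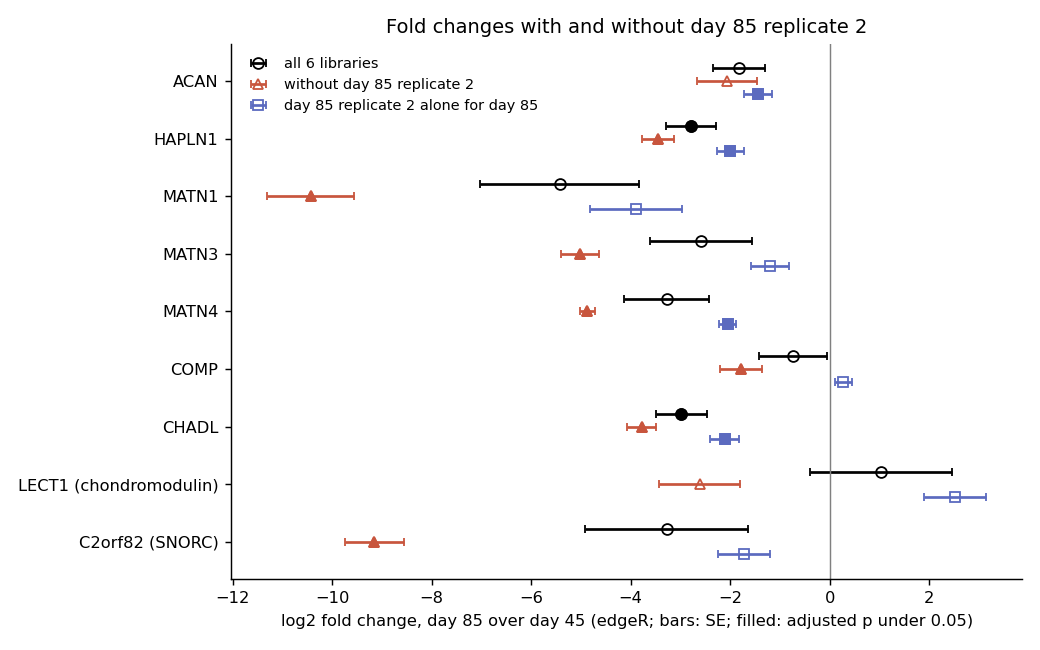
Log2 fold changes of the 9 genes with SE bars from 3 edgeR fits, with all libraries in black, without day 85 replicate 2 in red, and with that library alone for day 85 in blue. Filled markers have an adjusted p under 0.05, and MATN1 and C2orf82 move most between the fits, from -10.43 and -9.16 without the library to -3.89 and -1.72 with it alone.

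The calls were also lost when other libraries were left out, as were nearly all calls in the table. Without each of the other 5 libraries in turn, 0 of the 9 passed in edgeR, where at most 25 genes of the whole table were called lower and at most 93 higher in any of these fits. Adjusted p ran from 0.0593 to 0.133 for HAPLN1 and from 0.0595 to 0.131 for CHADL. Their log2 fold changes then lay between -2.89 and -2.47 and between -3.12 and -2.62. DESeq2 on all libraries called 5 of 8 lower, against 10.8% of all genes, and gave LECT1 no adjusted p. It added ACAN (adjusted p = 0.000994), MATN4 (adjusted p = 0.00247) and MATN1 (adjusted p = 0.0119).

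Per gene length, the order of levels was partly resolved at day 45, where 4 of 8 neighbouring pairs overlapped, and not at day 85. These levels rest on the gene models of the authors' annotation, whose lengths implied by the FPKM values run from 483 bases for LECT1 to 7081 for ACAN. At day 45, ACAN (364 ± 30.7 FPKM, SD, n = 3) and HAPLN1 (362 ± 76.6) led and overlapped. C2orf82 (207 ± 65.2) and MATN4 (194 ± 17.9) followed and overlapped, then MATN1 (139 ± 63.7) and COMP (31.5 ± 2.78), each apart from its direct neighbours. MATN1 ran from 65.5 to 178 FPKM and so overlapped C2orf82, which ran from 131 to 246 FPKM. MATN3 (15.2 ± 3.59), CHADL (9.91 ± 1.35) and LECT1 (9.74 ± 6.16) closed the order, and neighbours among these 3 overlapped. At day 85 ACAN (99.3 ± 57.0 FPKM) and HAPLN1 (49.9 ± 30.6) still had the highest means, and every neighbouring pair in the order overlapped. ACAN made up 26.4% to 28.8% of the summed FPKM of the 9 genes at day 45 and 45.5%, 30.0% and 68.7% in day 85 replicates 1, 2 and 3 (exact two-sided permutation p = 0.1).

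The profile shared by the 9 genes over the 6 libraries was compared with 8273 other named genes of at least 10 CPM. The most alike, by Pearson's r of log2 CPM with the mean standardised profile, were COL2A1 (0.999) and COL9A1 (0.998), cartilage collagens, then SRP72 (0.998), a signal recognition particle subunit, and FAM120A (0.997), an RNA-binding protein. IHH (0.997), the hedgehog ligand of prehypertrophic chondrocytes, and MFI2 (0.996), melanotransferrin, closed the list. These correlations describe 6 libraries of 2 ages whose cell markers differ widely in level, and SRP72 varied only from 101 to 159 CPM. Within the set, MATN3 followed the mean of the other 8 most closely (r = 0.995), ACAN (0.852) and COMP (0.875) less so, and LECT1 least (0.532).

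Genes around the 9 were read from 7 lists with 91 entries, of which 81 genes could be tested. In all, 8 of the 81 fell and 2 rose, against 2.66% and 3.90% of all tested genes, and their median log2 fold change was -0.32, against 0.02 over all genes. Without day 85 replicate 2 the counts were 26 and 6, against 10% and 12.3% of all genes, with the same 10 genes among them. Without each of the other 5 libraries 0 and 0 passed. Of the genes that fell with all libraries, CLEC3A and EPYC entered the fit only through day 45, where they are high.

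The collagens that share the matrix with aggrecan all had negative values, and 2 of 6 fell. These were COL11A1, a chain of the fibril core, 2.60-fold (adjusted p = 0.0458) and COL27A1, a fibrillar collagen of cartilage, 2.44-fold (adjusted p = 0.0473). The median log2 fold change of the 6 was -2.29. COL2A1 (log2 fold change -3.48, edgeR adjusted p = 0.168), COL9A1 (-3.32, 0.159), COL9A2 (-3.06, 0.140) and COL11A2 (-1.53, 0.0807) did not pass. Their fitted falls were larger than those of the 2 that passed, and their ages did not overlap. Without day 85 replicate 2, 6 of 6 were called lower, against 10% of all genes. Of the SOX transcription factors that drive aggrecan and matrilin genes, SOX9 fell 3.98-fold (adjusted p = 0.0400), SOX6 stood at 7.52 ± 0.70 and 7.66 ± 3.14 CPM, and 1 of 3 fell.

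Of the partners and relatives of the 9 genes, none passed with all libraries. In the hyaluronan and lectican list, 0 of 13 passed in edgeR, with a median log2 fold change of -0.23. VCAN, the versican gene and a relative of ACAN in many connective tissues, stood at 1510 ± 222 and 1283 ± 298 CPM (adjusted p = 0.496). PTX3, a pentraxin that binds hyaluronan-rich matrix, stood at 237 ± 56.3 and 174 ± 32.7 CPM. Among 7 relatives of the matrilins, COMP, CHADL and chondromodulin, 0 passed, 6 had negative values, and the median log2 fold change was -0.32. CHAD, a relative of CHADL, had the only positive value. It stood at 141 ± 58.0 and 259 ± 52.3 CPM, with overlap between ages (edgeR adjusted p = 0.143). TNMD, tenomodulin, the close relative of chondromodulin and a tendon marker, stood at 306, 620.1 and 201 CPM at day 45. Its day 85 libraries had 42.6, 56.9 and 108 CPM, with no overlap. It was just short of the threshold (adjusted p = 0.0528) and passed without day 85 replicate 2 (adjusted p = 0.0439). THBS3, a thrombospondin, stood at 219 ± 59.0 and 111 ± 49.1 CPM without overlap (adjusted p = 0.150, and 0.0453 without that library). CHAD, TNMD and THBS3 are named here after their values were seen. THBS2, a thrombospondin like COMP, stood at 1721 ± 474 and 1520.3 ± 658 CPM and THBS1 at 355 ± 55.8 and 287 ± 34.8 CPM.

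Other secreted proteins found in cartilage mostly had negative values, 11 of 14, with a median log2 fold change of -0.95. Of these 14 genes, 2 fell and 1 rose. CLEC3A, a cartilage lectin, fell 11.6-fold from 1.97 CPM (adjusted p = 0.0401), with 1, 5 and 1 counts at day 85. The small proteoglycan EPYC fell 9.13-fold from 1.95 CPM (adjusted p = 0.0487), with 0, 7 and 2 counts. CLEC3A and EPYC passed the filter on low counts only through day 45, where they are high, so their calls add no support. VIT, vitrin, rose 4.15-fold from 7.18 ± 2.28 to 29.8 ± 3.24 CPM (adjusted p = 0.0183). Proteases and inhibitors that act on aggrecan and COMP had 0 of 15 past the threshold. The list had 6 negative values and a median log2 fold change of 0.12. MMP13 (94.3 ± 82.4 and 562 ± 476 CPM), MMP3 (5.34 ± 3.20 and 18.2 ± 5.80 CPM) and ADAMTS20 (14.5 ± 7.42 and 40.6 ± 19.2 CPM) were higher in every day 85 library than in any day 45 library. They are named here after their values were seen. Without day 85 replicate 2, 2 of the list passed lower and 2 higher, against 10% and 12.3% of all genes. The membrane protease MMP14 stood at 1447 ± 284 and 1255 ± 517 CPM, and the secreted protease HTRA1 at 827 ± 244 and 449 ± 107 CPM (adjusted p = 0.0925).

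Among 23 genes that build and sulfate chondroitin chains, the chains aggrecan and SNORC carry, 3 fell and 1 rose. PAPSS2, which makes the sulfate donor, fell 7.18-fold from 407 ± 57.1 to 56.7 ± 34.0 CPM (adjusted p = 0.0270). UGDH, which makes the glucuronate donor, fell 2.35-fold (adjusted p = 0.0160) and the chondroitin synthase CHSY1 fell 1.95-fold (adjusted p = 0.0297). CHST15, which adds a further sulfate to chondroitin, rose 1.95-fold (adjusted p = 0.0344). The list's median was -0.43.

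**Figure D4:**
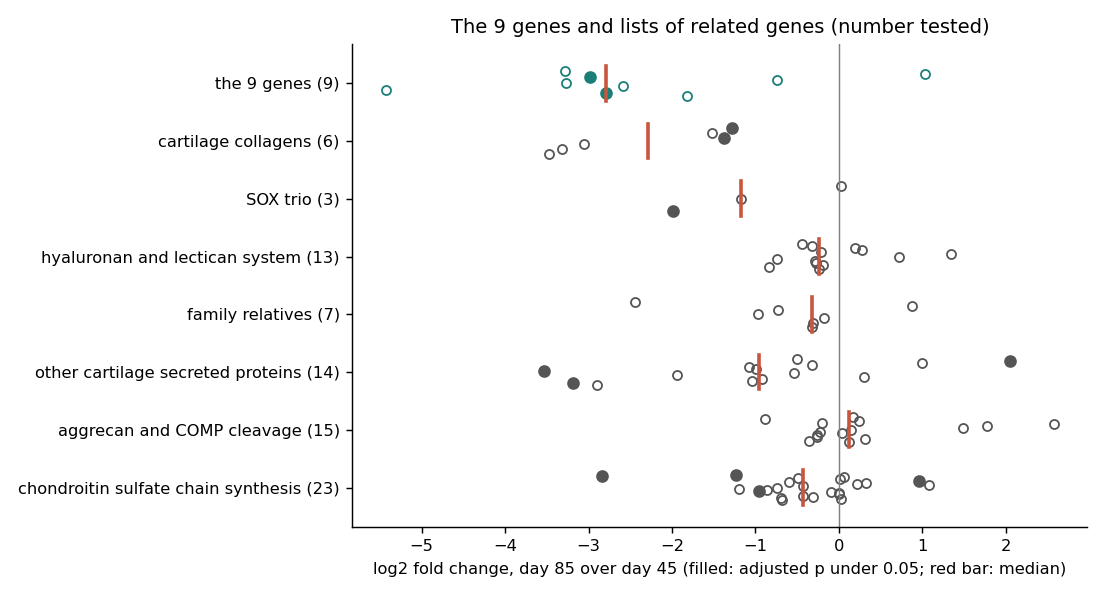
Log2 fold changes (day 85 over day 45, edgeR, all libraries) of the 9 genes in green and of the tested genes of 7 related lists in grey. Filled circles have an adjusted p under 0.05 and red bars mark medians, which run from -2.79 for the 9 genes to 0.12 for the proteases.

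Markers of other cell types also differed in level between libraries, and their part in the results on the 9 genes was not tested. Day 85 replicate 2, with the highest levels of most of the 9 genes at that age, also had the highest summed osteoclast level. That list of 8 genes stood at 1923, 13642 and 2349 CPM in day 85 replicates 1, 2 and 3 and at 317 to 1353 CPM at day 45. The 8 hypertrophic chondrocyte genes stood at 4931, 13340 and 4273 CPM at day 85 and at 1813 to 4795 CPM at day 45. Most of that day 85 sum was SPP1, osteopontin, which is also in the osteoblast list and stood at 4079, 10779 and 3462 CPM. The list had 5 of 8 negative values and a median log2 fold change of -0.55, with none past the threshold. COL10A1, the collagen that defines hypertrophic chondrocytes, stood at 2.24, 466 and 3.16 CPM at day 85 and at 93.7 to 334 CPM at day 45. The 8 osteoblast genes stood at 46950, 83292 and 53186 CPM at day 85 and at 31711 to 49522 CPM at day 45. Most of that day 85 sum was COL1A2, a collagen I gene, at 39985, 64395 and 46978 CPM. The osteoblast list had 1 of 8 negative values and a median log2 fold change of 0.92, with none past the threshold. The 7 tendon and perichondrium genes stood at 2371, 4859 and 6414 CPM at day 85 and at 6838 to 9562 CPM at day 45. Most of that day 85 sum was POSTN, at 1542, 2942 and 4143 CPM. Endothelial markers (7 genes) were at 1360, 853 and 1020 CPM at day 85 against 255 to 501 CPM, and macrophage markers (8 genes) at 358, 798 and 275 CPM against 79.4 to 152 CPM. Erythroid markers (7 genes) were at 1268, 2474 and 594 CPM at day 85 against 431 to 810 CPM at day 45. Most of that day 85 sum was HBB, a globin gene, at 1202, 2343 and 562 CPM, which overlapped between ages. In edgeR, 4 of 7 tested endothelial, 4 of 7 macrophage and 2 of 6 erythroid markers rose, and 1 of 7 tendon and perichondrium markers fell. Over all tested genes 3.90% rose and 2.66% fell. With all libraries, 0 of 8 osteoclast and 0 of 11 tested skeletal muscle markers passed. No marker was at 0 in all libraries. With the 12 muscle genes left out of the table, edgeR called 2 of the 9 lower, and 525 of 14991 genes in all.

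**Figure D5:**
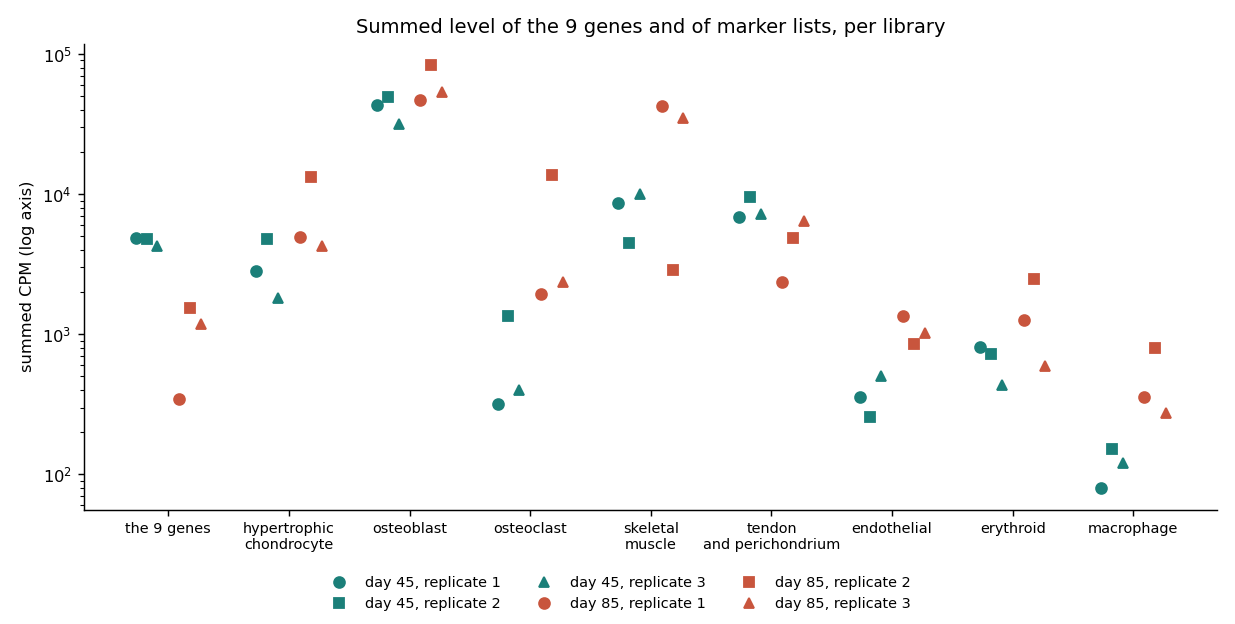
Summed CPM of the 9 genes and of 8 marker lists in each library on a log axis, with day 45 in green and day 85 in red and a marker shape per replicate. The 9 genes sum to 4297 to 4849 CPM at day 45 and to 346, 1539 and 1188 CPM in day 85 replicates 1, 2 and 3, while muscle genes are lowest in replicate 2.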

How the data were processed

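Whole-number counts per gene and FPKM values for the same 6 libraries were deposited in a single table, per the file headers. Per the submitters' processing notes HISAT2 was used; its version, the counter, strand setting, build and annotation are not given in the sources used. The deposited FPKM equal counts divided by library totals and a factor per gene, within 0.00179% for 10748 genes with 50 or more counts in every library.

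Tests on counts ran across the whole table of genes in edgeR 4.0.16 (R 4.3.3): filterByExpr (minimum count 10), TMM, robust quasi-likelihood F test, age as the only factor, Benjamini-Hochberg adjustment over all genes. The SE is the log2 fold change divided by the square root of F. Ratios between genes used FPKM and an exact permutation test (scipy 1.17.1). The edgeR step was tested on simulated data. Alternatives were other scalings, filters, DESeq2 1.42.0, limma 3.58.1 (voom, and log2 of FPKM with a pseudocount of 0.1), a replicate block, and leaving out each library.

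The 9 genes, the lists and the tests were chosen with earlier results of these data known. Of 161 list entries, 12 matched no row. All 9 genes are named. Each related list contributes up to 4 called genes of at least 1 CPM with the largest change or, with fewer than 2 called, also its 2 most abundant genes. COL2A1, SPP1, COL10A1, COL1A2, POSTN and HBB were added to describe the libraries. CHAD, TNMD, THBS3, MMP13, MMP3, ADAMTS20 and, in the collagen list, the cartilage collagens that did not pass were added after their values were seen.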

Additional observations from a re-analysis of the deposited data

How the results depend on the processing

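The count of 2 of 9 genes called lower was also 2 under 3 other scalings (RLE, upper quartile, library totals), both filters, and without muscle genes, and 3 with limma-voom and with limma-trend on log2 FPKM. It was 5 of 8 with DESeq2, ran from 0 to 7 when each library was left out, and was 4 with day 85 replicate 2 alone, an alternative chosen after seeing the data. No setting called any of the 9 higher. Over all genes, edgeR had 586 higher and 400 lower, DESeq2 2064 and 1770, and day 85 replicate 2 alone 709 and 187. Leaving out a library gave 0 to 1884 higher and 0 to 1528 lower.

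The sign of LECT1 was not stable. Its log2 fold change of 1.03 became -0.91 with limma-voom and with limma-trend, -0.84 with the replicate block, and -2.61 to 1.66 when each library was left out; the cause was not tested. COMP became 0.28 with day 85 replicate 2 alone. The other 7 genes kept a negative sign in all 18 alternatives. Among these, summing rows of the same name could not differ from the main fit, because each of the 9 names had 1 row.

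The labels do not say whether replicate numbers pair the libraries. Deviations of same-numbered libraries correlated at 0.03, 0.28 and 0.08. Those of differently numbered libraries ran from -0.30 to 0.27, so these correlations cannot settle it. With the number as a replicate block, 2 of the 9 genes were called lower, and 465 genes were higher and 217 lower in all. Leaving out each library moved the day 85 minus day 45 differences in the summed share and the ratios to ACAN by less than the larger SD of the 2 ages, which is wide. In FPKM per 100 FPKM of ACAN, moves over 1.5 times were, without day 85 replicate 2, LECT1 from 14.3 to 1.66, COMP from 8.65 to 3.17 and MATN3 from -1.98 to -3.37. Without day 85 replicate 3, MATN3 went to -1.09, CHADL from -1.11 to -0.50 and LECT1 to 22.6. CHADL went to -1.67 without day 85 replicate 1, and HAPLN1 from -45.0 to -27.9 without day 45 replicate 3. Values of at most 3 counts are limited by depth.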
